A study of Drosophila melanogaster with 6 samples.

Results

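The proteasome genes of the larval brain were taken from a deposited table of read counts per gene as all rows whose symbol begins with Prosalpha, Prosbeta, Rpn or Rpt, the last 2 followed by a digit. The rule found 47 of 17737 genes. Of these, 32 are canonical subunits, with 1 gene for each subunit named (7 alpha, 7 beta, 6 Rpt and 12 Rpn), and 15 are paralogs, extra copies whose symbol ends in R or T with or without a digit. The RNA came from whole brains of Drosophila melanogaster larvae in the third instar, sequenced as 3 control and 3 DNMT3L libraries. The control genotype was elavC155-Gal4, a driver that makes neurons produce Gal4, a transcription factor of yeast. The DNMT3L genotype came from crossing elavC155-Gal4 to a stock that is w/w, carries P(UAS-DNMT3L,w+)/Cyo and has TM2/TM6B as its other balanced pair. There Gal4 activates a transgene for DNMT3L, a mammalian protein that binds DNA methyltransferases and has no catalytic activity of its own. Both groups thus carried the driver, and only the DNMT3L cross brought in the transgene and the balancer chromosomes. In that stock the transgene lies over the balancer Cyo, no label states that transgene carriers were picked among the larvae, and the transgene's own level was not analysed here. The driver acts in neurons while all brain cells gave RNA. No label ties a library to its own animals, and p-values here measure only the spread between these samples, which may be technical.

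The proteasome is the protease complex that degrades proteins tagged with ubiquitin in the cytoplasm and nucleus of every eukaryotic cell. Its core particle is a barrel of stacked rings, with outer alpha rings that gate the entrance and inner beta rings that hold the proteolytic sites. A regulatory particle caps the barrel: a ring of Rpt ATPases unfolds the substrate, and Rpn subunits bind ubiquitin, remove it and hold the complex together. In neurons the complex is known for clearing misfolded proteins and for turning over synaptic and cell fate regulators. Drosophila also has extra copies of several subunits, many of which are known from the testis.

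Total counts lay between 17928420 and 19251845 per library. Brain markers were present in both groups: the 6 neuron, 5 neuroblast and 4 glia markers listed were all above the filter on low counts. Levels are given as CPM, counts scaled to the TMM-adjusted library size, unless FPKM is named. Group means are given as control against DNMT3L, each ± SD with n = 3, and fold changes ± SE. The summed level of the neuron markers was 93.0 to 462 CPM in controls and 537 to 1111 CPM in DNMT3L. For the neuroblast markers it was 224 to 398 against 434 to 489.9 CPM, also without overlap, and for the glia markers 405 to 511 against 469 to 515 CPM. Markers of tissues around the brain were present too, with 368 to 749 against 78.3 to 299 CPM for 6 muscle markers and 1283 to 2157 against 840.5 to 1064 CPM for 6 fat body markers. For 6 cuticle markers the ranges were 295 to 1060.0 against 79.2 to 326 CPM, and for 6 salivary gland markers 12.9 to 56.3 against 25.4 to 197 CPM. None of these 24 markers was at 0 in all libraries. Control 1 had the lowest neuron sum and the highest fat body, muscle and cuticle sums of the 6 libraries, and DNMT3L 1 had the highest neuron and the lowest muscle and cuticle sums. The same libraries stood apart from the rest of their groups in opposite directions by exonic size, between short and long genes. In control 1 the trend of a gene's deviation from the 6-library mean on its exonic size ran from 0.52 at 1000 bases to −0.98 at 6000 bases (log2), and in DNMT3L 1 it ran from −0.42 to 0.65. The part of these differences in the proteasome values was not tested, and in bulk RNA fewer cells of a type and less RNA per cell cannot be told apart.

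In DNMT3L brains nearly all canonical proteasome subunits had lower mean levels than in controls, by modest amounts. The log2 fold change was negative for 31 of 32, with a median of −0.41 and a range from −0.64 for Prosalpha4 to 0.058 for Rpn2. With total counts in place of TMM, 27 of 32 were negative, since Rpn1, Rpn2, Rpn5, Rpn6 and Rpt5 were then above 0 and the median of all genes was 0.14. With TMM, over all 9495 genes tested, 52.3% were negative and the median was −0.027. No member passed the test: edgeR's quasi-likelihood test with Benjamini-Hochberg adjustment over all genes called 0 of the 34 members tested, against a background of 0% of all genes, and the lowest adjusted p was 0.332. At an unadjusted edgeR p under 0.05 there were 8 members, all lower (Prosalpha4, Prosalpha6, Prosbeta1, Prosbeta6, Prosbeta7, Rpt3, Rpn7 and Rpn13), where 1427 of all genes tested were under that p and the background of lower ones was 8.79%. That count of 8 was 1 when control 1 was left out (1125 of 9707 genes), 3 without control 3 (869 of 9701), 1 once the length trend was taken out (2102 of 9495) and 0 with total counts (1324 of 9495). It was also 0 when any 1 DNMT3L library was left out (646 to 1076 genes) and 0 with the replicate number as a block (458 genes), and it was 13 without control 2, where 2576 of 9708 genes were under that p. DESeq2 called 0 members and 3.08% of all genes (1.96% lower), and its lowest adjusted p for a member was 0.159. Of 17 alternatives to the edgeR fit, only limma's voom fit with library quality weights called members, namely Prosalpha6, Rpn7 and Rpn13, all lower, where it called 11.9% of all genes and 6.13% lower. The groups did not overlap for 21 canonical subunits, all lower in DNMT3L, where 28.1% of all genes had no overlap, 14.1% lower and 14.0% higher. Control 1 had the highest level of the 6 libraries for 29 of 32 subunits, and DNMT3L 1 had the lowest for 26. Over all genes tested these shares were 38.7% and 34.0%, and over cytoplasmic ribosomal protein genes they were 98.8% and 96.3%. The median was −0.20 without control 1, and once each library's length trend was taken out it was −0.10, a fit that called 0 members and 0.126% of all genes.

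**Figure D1:**
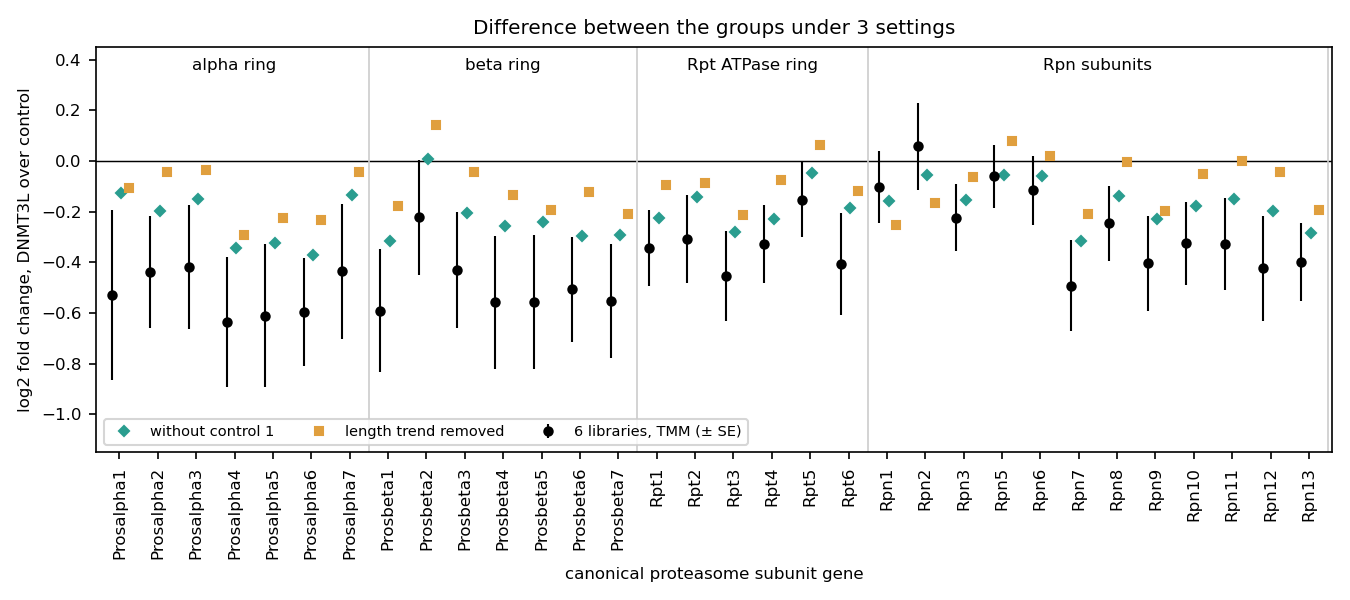
Log2 fold change of DNMT3L over control (y axis) for each of the 32 canonical subunit genes (x axis), grouped by place in the complex. Black points with bars are edgeR estimates ± SE from the 6 libraries, diamonds leave out control 1 and squares have the length trend removed. The black points are below 0 for 31 genes, and the diamonds and squares lie nearer to 0 for most of them.

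The 4 groups of subunits differed in how far their medians lay below 0. The median log2 fold change was −0.53 for the alpha ring, −0.55 for the beta ring, −0.34 for the Rpt ring and −0.29 for the Rpn subunits. With the length trend removed these became −0.11, −0.13, −0.090 and −0.057. No test of the difference between the groups of subunits was made, because all subunits share the same 6 libraries.

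By level per length the core particle stood above the regulatory particle. FPKM, the deposited level, scaled by exonic length and library total, allows levels of different genes to be compared. Leaving out Prosalpha1, the 6-library mean FPKM of the other 31 canonical subunits lay within a 3.47-fold range, from 121 for Rpn2 to 421 for Prosalpha3. All 13 highest were core subunits, from Prosalpha3 down to Prosbeta2 at 288 FPKM, and Rpt1 followed at 277 FPKM. At the border between the particles, Prosbeta2 was at 291 ± 48.6 against 285 ± 46.2 FPKM and Rpt1 at 293 ± 17.1 against 261 ± 4.27 FPKM (SD, n = 3), and the order of their means differed between the groups. The median FPKM was 368 for the other 6 alpha subunits, 339.6 for the beta ring, 233 for the Rpt ring and 181 for the Rpn subunits. Levels per length went down with exonic size across these 31 genes (Spearman's rho −0.89), and the core genes are the shorter ones, with 815 to 1215 exonic bases against 995 to 3412 for the regulatory particle. All 31 genes come from the same libraries, and the rho is given as a description.

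The ratio of core to regulatory particle differed between libraries. The summed FPKM of core subunits over that of regulatory subunits was 1.59, 1.18 and 1.34 in control libraries 1 to 3 and 1.06, 1.31 and 1.24 in DNMT3L libraries 1 to 3. Control 1 was the highest and DNMT3L 1 the lowest, and the other 4 libraries of both groups overlapped. Canonical subunits together took 1.26%, 1.06% and 1.03% of all counts in the controls and 0.889%, 1.03% and 1.02% in DNMT3L. These shares are of total counts without TMM scaling, where the controls were again above DNMT3L but control 3 by a small margin.

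**Figure D2:**
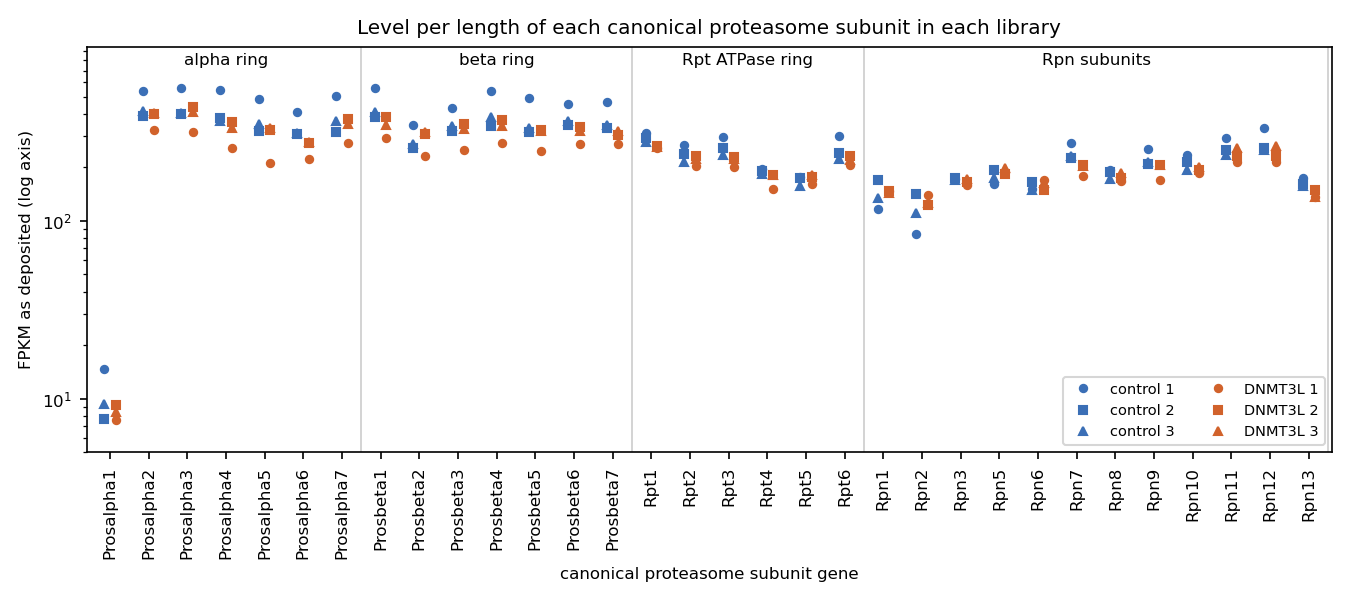
Deposited FPKM (y axis, log scale) of each canonical subunit gene (x axis) in each of the 6 libraries, with controls in blue, DNMT3L in orange and the replicate number as the marker shape. Core subunits other than Prosalpha1 lie above most of the regulatory particle, Prosalpha1 lies near 10, and control 1 is the top point for most core genes.

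Prosalpha1 was the exception to the even levels of the core. It was at 14.6, 7.72 and 9.36 FPKM in the controls and 7.59, 9.21 and 8.47 FPKM in DNMT3L, and the median of the other 6 alpha subunits was 38.8-fold higher. The gene lies on chromosome 2R from 7827303 to 7828678 on the minus strand (BDGP6). A gene that the deposited table calls CG30382, named Prosalpha1R in the reference gene name table, lies beside it, from 7830413 to 7831771 on the same strand. These genes are known as near-identical copies, CG30382 had 2 reads over the 6 libraries, and no source used here states how reads that match more than 1 place were treated. The level of Prosalpha1 is therefore uncertain, and its log2 fold change of −0.53 ± 0.33 (SE, edgeR adjusted p = 0.374) rests on 1018 reads in all. CG30382 is outside the symbol rule and is not counted among the members.

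The alpha ring forms the gate through which substrates enter the barrel, and all 7 of its genes had negative log2 fold changes, between −0.64 and −0.42. Prosalpha6, which had the lowest p of the ring, was at 509, 324 and 348 CPM in control libraries 1 to 3 and 227, 277 and 277 CPM in DNMT3L libraries 1 to 3. The groups did not overlap, though control 1 was far above the other controls. The log2 fold change was −0.60 ± 0.21 (SE), or 1.51-fold lower, with an edgeR adjusted p of 0.332. Leaving out control 1 gave −0.37, and taking out the length trend gave −0.23. Prosalpha3, the alpha subunit whose tail closes the gate in yeast, had the highest FPKM of all members and the fold change nearest to 0 in the ring. It was at 636, 381 and 408 CPM in control libraries 1 to 3 and 294, 400.4 and 372 CPM in DNMT3L libraries 1 to 3. Here the groups overlapped, since DNMT3L 2 lay above control 2, and the estimate of −0.42 ± 0.24 on the log2 scale was −0.036 with the length trend removed. Prosalpha4, with the most negative estimate of all members, was at 544 ± 174 against 349.9 ± 56.6 CPM (SD, n = 3), with an estimate of −0.64 ± 0.26 (SE, edgeR adjusted p = 0.332). Prosalpha5 was next at −0.61, and Prosalpha2 and Prosalpha7 were at −0.44 and −0.44. The groups did not overlap for Prosalpha2, Prosalpha4, Prosalpha5 and Prosalpha6.

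The beta ring holds the proteolytic sites on 3 of its 7 subunits, and again all 7 genes had negative log2 fold changes. Prosbeta5 carries the chymotrypsin-like site, the main target of proteasome inhibitor drugs. It was at 654, 356 and 396 CPM in control libraries 1 to 3 and 267, 352 and 337 CPM in DNMT3L libraries 1 to 3. Every control lay above every DNMT3L library, the lowest control by only a few CPM, and the log2 fold change was −0.56 ± 0.27 (SE, edgeR adjusted p = 0.333). Prosbeta1, with the caspase-like site, was at 556, 321 and 361 CPM in control libraries 1 to 3 and 236, 311 and 275 CPM in DNMT3L libraries 1 to 3. These groups did not overlap either, and the log2 fold change was −0.59 ± 0.24 (edgeR adjusted p = 0.332). Prosbeta2, with the trypsin-like site, differed from the other catalytic subunits in its estimate, at 419, 262 and 289 CPM in control libraries 1 to 3 and 228, 302 and 302 CPM in DNMT3L libraries 1 to 3. DNMT3L 2 and 3 lay above controls 2 and 3 for this gene, and its estimate of −0.22 ± 0.23 (edgeR adjusted p = 0.538) turned to 0.14 with the length trend removed. Without control 1 it was 0.0067. Prosbeta5 and Prosbeta1 were at −0.24 and −0.32 without control 1, and at −0.20 and −0.18 once the length trend was taken out.

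The non-catalytic beta subunits shape the ring and its assembly, and their estimates lay between −0.56 and −0.43. Prosbeta7 had the lowest p of the ring and was at 665, 398 and 434 CPM in control libraries 1 to 3 and 311, 350.1 and 360.0 CPM in DNMT3L libraries 1 to 3. The DNMT3L libraries were all below the controls, with an estimate of −0.55 ± 0.22 (SE, edgeR adjusted p = 0.332), −0.29 without control 1. Prosbeta6 was at 392 ± 94.9 against 276 ± 29.2 CPM with no overlap, and Prosbeta4 and Prosbeta3 had log2 fold changes of −0.56 and −0.43 with overlapping groups. Prosbeta2 and Prosbeta5 share 82 and 81 exonic bases with the genes Reck and Lsm10 on the opposite strand. In all, 13 canonical genes share exonic bases with a neighbour on the opposite strand. No source used here gives the strand setting of the counting, so such reads cannot be assigned with certainty.

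The Rpt ATPases form the unfolding motor at the base of the regulatory particle, and all 6 had negative log2 fold changes (5 with total counts, where Rpt5 was above 0), from −0.45 to −0.15. Rpt3 had the lowest p of the ring, at 535, 394 and 378 CPM in control libraries 1 to 3 and 297, 336 and 321 CPM in DNMT3L libraries 1 to 3. The groups did not overlap, and the log2 fold change was −0.45 ± 0.18 (SE, edgeR adjusted p = 0.332). Rpt1, the most abundant ATPase per length, was at 549, 435 and 435 CPM in control libraries 1 to 3 and 370.2, 380.0 and 368 CPM in DNMT3L libraries 1 to 3. Its 3 DNMT3L libraries lay within 368 to 380.0 CPM and below each control, with an estimate of −0.34 ± 0.15 (edgeR adjusted p = 0.332). Rpt5, whose tail is known in yeast to dock into the alpha ring, had the smallest difference, at 336, 279.9 and 267 CPM in control libraries 1 to 3 and 250.2, 272 and 272 CPM in DNMT3L libraries 1 to 3. These groups overlapped, and the estimate of −0.15 ± 0.15 on the log2 scale (edgeR adjusted p = 0.518) was 0.062 once the length trend was taken out and 0.024 with total counts in place of TMM. Rpt2, Rpt4 and Rpt6 had log2 fold changes of −0.31, −0.33 and −0.41, each without overlap between the groups. Without control 1, Rpt1, Rpt2, Rpt3, Rpt4 and Rpt6 were at −0.22, −0.14, −0.28, −0.23 and −0.19. Once the length trend was taken out, they were at −0.094, −0.086, −0.21, −0.076 and −0.12, and the groups overlapped for each. Rpt6 shares 182 of its exonic bases, 13.0%, with CG1801 on the opposite strand.

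Among the Rpn subunits 8 form the lid, which removes ubiquitin chains, and Rpn1, Rpn2, Rpn10 and Rpn13 belong to the base or join it to the lid. Rpn11, the metalloprotease that cuts ubiquitin from the substrate, was at 335 ± 68.3 against 267 ± 20.8 CPM (SD, n = 3), which gave −0.33 ± 0.18 on the log2 scale (SE, edgeR adjusted p = 0.349). The estimate for Rpn11 was −0.00020 with the length trend removed. Rpn8, its inactive partner, had −0.25 ± 0.15. Rpn7, a scaffold subunit of the lid and the Rpn gene with the lowest p, was at 446, 308 and 334 CPM in control libraries 1 to 3 and 239, 271 and 263 CPM in DNMT3L libraries 1 to 3. All DNMT3L libraries were below all controls, with an estimate of −0.49 ± 0.18 (edgeR adjusted p = 0.332), which was −0.32 when control 1 was left out and −0.21 once the length trend was taken out. Rpn12, also of the lid and the most abundant Rpn transcript per length, was at 385, 252 and 257 CPM in control libraries 1 to 3 and 203, 219 and 244 CPM in DNMT3L libraries 1 to 3. Its groups did not overlap and its log2 fold change was −0.42 ± 0.21 (edgeR adjusted p = 0.334), which was −0.20 when control 1 was left out and −0.045 once the length trend was taken out.

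Rpn5 and Rpn6, scaffold subunits and the longest lid genes, lay closest to 0 in the lid with TMM, while Rpn11 and Rpn8 (−0.0051) did once the length trend was taken out. With 1897 and 1945 exonic bases, Rpn5 and Rpn6 had log2 fold changes of −0.061 and −0.12 with overlapping groups. Rpn3 was at −0.22 and Rpn9 at −0.40, both without overlap. Part of the reads of Rpn9 cannot be placed with certainty, since it shares 7.44% of its exonic bases with CG10365 on the opposite strand.

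The ubiquitin receptors had more negative estimates than the large scaffolds of the base with TMM, an order that did not hold once the length trend was taken out. Rpn10 and Rpn13, which bind ubiquitin chains, were at 324 ± 56.0 against 259 ± 7.22 CPM and 293 ± 40.0 against 222 ± 13.8 CPM, with log2 fold changes of −0.33 ± 0.16 and −0.40 ± 0.15 (edgeR adjusted p of 0.334 and 0.332). Neither gene's groups overlapped. Rpn1, a docking site for ubiquitin shuttles, was at 449 ± 49.7 against 418 ± 10.3 CPM, a log2 fold change of −0.10 ± 0.14. Rpn2, the scaffold that holds Rpn13, was the longest member at 3412 exonic bases and the only canonical subunit with a positive estimate. It was at 337, 473 and 395 CPM in control libraries 1 to 3 and 454, 399 and 401 CPM in DNMT3L libraries 1 to 3. Control 1 was the lowest library and control 2 the highest, so the groups overlapped, and the log2 fold change was 0.058 ± 0.17 (SE, edgeR adjusted p = 0.830). Once the length trend was taken out, Rpn10 was at −0.052, Rpn13 at −0.19, Rpn1 at −0.25 and Rpn2 at −0.16. Without control 1 Rpn10 and Rpn13 were at −0.18 and −0.28, and Rpn2 and Rpn1 at −0.054 and −0.16.

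Across the 32 canonical genes the log2 fold change followed exonic size (Spearman's rho 0.75, across genes that share the same libraries), and the rho was 0.37 when control 1 was left out. Over all 9495 genes tested the rho was 0.58. The 10 canonical genes of up to 1000 bases had a median of −0.47, where all 1393 genes of that size had −0.41, and the 7 of over 1600 and up to 2000 bases had −0.22, where all 1088 genes had −0.15. In the class of over 1000 and up to 1300 bases the values were −0.55 for 6 canonical genes and −0.33 for 931 genes. In each of the 5 size classes compared the proteasome median lay below that of all genes. The class of over 2000 bases held only 2 canonical genes, of 3041 and 3412 bases, with a median of −0.022. All 5154 genes of that class, of up to 71820 bases, had 0.24, so sizes were not matched there. With the length trend removed the rho across the canonical genes was 0.02, and 28 of 32 estimates were negative, Rpn2 now among them, with Prosbeta2, Rpn5, Rpn6 and Rpt5 above 0. The groups did not overlap for 9 lower canonical genes then, where 15.2% of all genes were lower without overlap. Prosbeta2 was the 1 canonical gene that was higher without overlap, and the share of all genes that were higher was not counted.

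**Figure D3:**
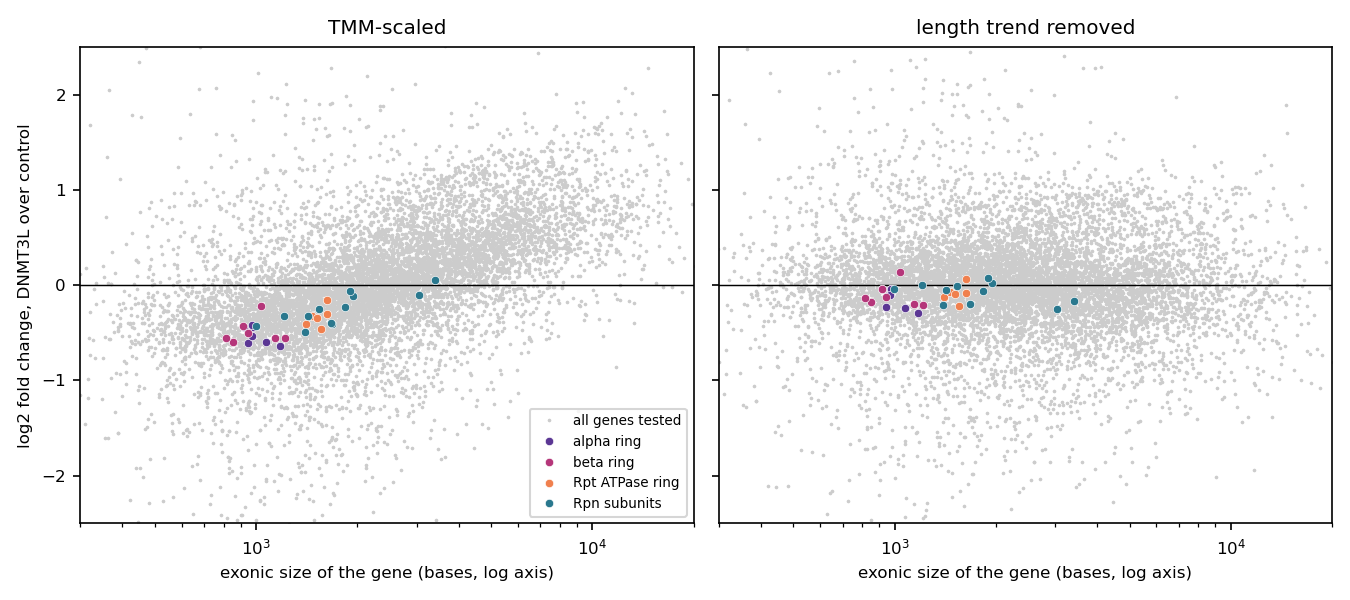
Log2 fold change of DNMT3L over control (y axis) against exonic size in bases (x axis, log scale) for all genes tested (grey) and canonical proteasome subunits (coloured by group), TMM-scaled on the left and with the length trend removed on the right. The axes leave out 114 genes on the left and 100 on the right. Proteasome genes lie within the cloud of other genes of their size, and their slope with size is gone on the right.

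The same pattern appeared library by library. The median deviation of the alpha ring from the 6-library mean was 0.71 in control 1 and −0.46 in DNMT3L 1 (log2), and that of the beta ring was 0.71 and −0.48. The Rpt ring had 0.42 and −0.24, and the Rpn subunits 0.37 and −0.19. In the other 4 libraries the 4 medians lay between −0.17 and 0.097. Among the libraries numbered 2 and 3, the medians over all 32 genes were 0.0076 and 0.065 in the controls and −0.099 and −0.13 in DNMT3L. Without both libraries numbered 1 the median log2 fold change was −0.14, with 31 of 32 estimates negative. The canonical genes are spread over chromosome arms 2L, 2R, 3L, 3R and X (4, 10, 5, 9 and 4 genes), and their medians lay between −0.44 and −0.33 on every arm.

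**Figure D4:**
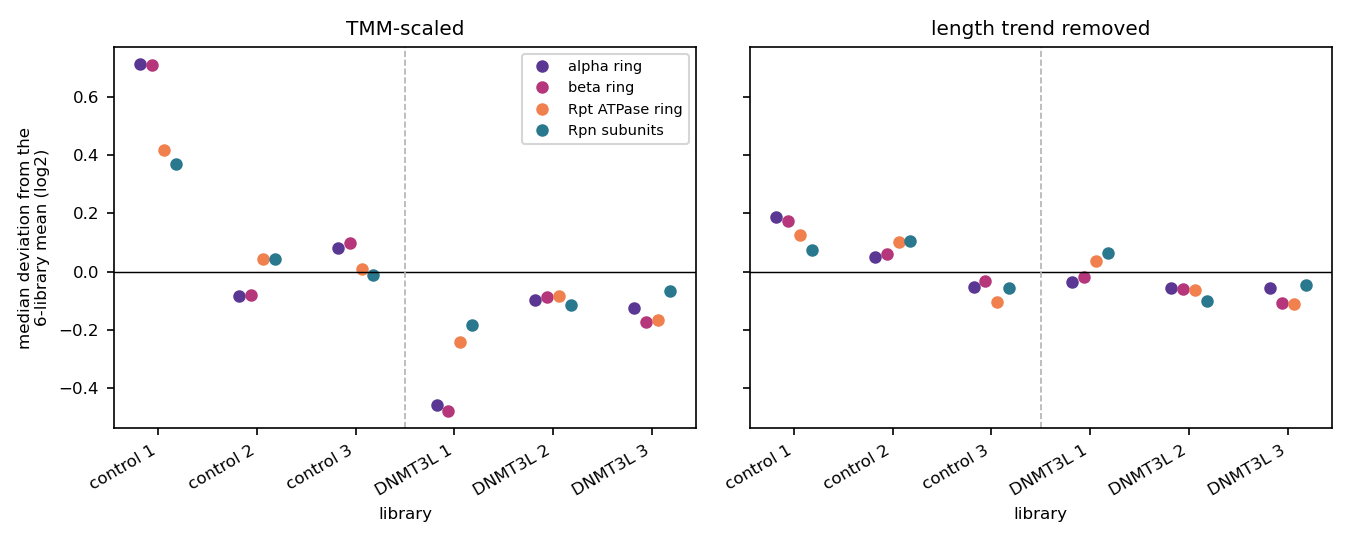
Median deviation from the 6-library mean on the log2 scale (y axis) of the 4 groups of canonical subunits in each library (x axis), TMM-scaled on the left and with the length trend removed on the right. On the left control 1 is highest and DNMT3L 1 lowest for every group of subunits, and on the right all medians lie between −0.11 and 0.19.

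Most of the paralogs were nearly silent in these brains. Of 15, 7 had no read in any library (Prosalpha3T, Prosalpha4T2, Prosalpha6T, Prosbeta4R1, Prosbeta4R2, Prosbeta5R2 and Rpn12R), for which 3 counts per library set an upper limit of 0.156 to 0.167 CPM before TMM scaling, by counting error only. Another 4 had 1 to 3 reads over the 6 libraries (Prosalpha4T1, Prosbeta2R1, Prosbeta5R1 and Rpn13R). Prosbeta2R2 had 1, 3 and 5 reads in the controls and 3, 13 and 1 in DNMT3L, and Rpt4R had 1, 6 and 4 against 3, 4 and 0 reads. These 2 and the 11 above did not pass the filter on low counts and were not tested. Of 7 testis markers listed, 6 were in the table, of which Mst84Da, Mst84Db, dj and ProtA were at 0 in all libraries, and their sum was at most 2.61 CPM in controls and 3.24 CPM in DNMT3L.

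Only Rpt3R and Rpt6R, copies of ATPase genes, passed the filter. Rpt3R was at 7.76, 5.87 and 5.72 FPKM in control libraries 1 to 3 and 6.76, 7.30 and 8.35 FPKM in DNMT3L libraries 1 to 3. By FPKM, DNMT3L 3 was the highest and control 3 the lowest, but control 1 lay above DNMT3L 1 and 2, so the groups overlapped. They also overlapped by CPM, where control 1 was the highest at 13.2, DNMT3L 3 was at 11.3 and control 2 was the lowest at 8.39. The log2 fold change of the counts was 0.022 ± 0.25 (SE, edgeR adjusted p = 0.960), with 0.26 without control 1. Its parent gene Rpt3 had 34.5-fold more FPKM. Rpt6R was at 4.97, 6.28 and 9.03 CPM in control libraries 1 to 3 and 4.99, 7.76 and 3.99 CPM in DNMT3L libraries 1 to 3. DNMT3L 1 and 2 lay within the range of the controls and DNMT3L 3 below it, and the log2 fold change was −0.28 ± 0.36 (edgeR adjusted p = 0.624), with 55.5-fold more FPKM for Rpt6. Reads shared between a paralog and its parent gene could be split by the counting, so the levels of both paralogs are uncertain.

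Genes that work with the proteasome were taken from 9 lists of 79 symbols, of which 77 were in the table, and 72 were tested. Of these edgeR called 0, with 2 at an unadjusted p under 0.05 (1427 of 9495 over all genes), and DESeq2 called 1 (3.08% over all genes). Of 7 genes for proteasome assembly and regulation tested, 6 were negative, with a median of −0.35, which was −0.13 when control 1 was left out, −0.016 without both libraries numbered 1 and −0.083 once the length trend was taken out. Sem1, the smallest subunit of the regulatory particle and outside the symbol rule, was at 185 ± 69.2 against 136 ± 16.9 CPM (SD, n = 3), which gave −0.44 ± 0.28 on the log2 scale (SE, edgeR adjusted p = 0.374). By the lowest p, CG8858 was at 82.9 ± 16.5 against 113 ± 12.6 CPM without overlap, higher in DNMT3L by 0.44 ± 0.19 on the log2 scale (SE, edgeR adjusted p = 0.332), which was −0.13 with the length trend removed for its 5896 exonic bases. CG12321 had −0.53 ± 0.30. Of the 2 proteasome-bound deubiquitinases tested, Usp14 was at 256 ± 40.0 against 206 ± 21.4 CPM, a log2 fold change of −0.31 ± 0.17, and Uch-L5 had 0.074 ± 0.18.

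Upstream of the proteasome the estimates were mixed. Of 8 genes for ubiquitin shuttles and the p97 segregase TER94 with its cofactors, 4 were negative, with a median of −0.053, and the TER94 cofactors p47 and Ufd1-like had log2 fold changes of −0.36 ± 0.19 and −0.25 ± 0.19 (SE, edgeR adjusted p of 0.339 and 0.428). With the length trend removed p47 was at −0.086 and Ufd1-like at 0.090. With TMM the 4 ubiquitin genes split evenly. RpL40 and RpS27A, which encode ubiquitin fused to a ribosomal protein, had −0.70 ± 0.28 and −0.60 ± 0.25. The polyubiquitin genes Ubi-p5E and Ubi-p63E had 0.11 and 0.00872. This split did not hold elsewhere: all 4 were negative without both libraries numbered 1. With the length trend removed RpL40, RpS27A and Ubi-p63E were at −0.25, −0.16 and −0.15, and Ubi-p5E was at 0.13. Ubiquitin activating and conjugating enzymes were negative for 4 of 9, with Ubc6 at 0.37 ± 0.19 and Ubc7 at −0.31 ± 0.17. The count was 7 of 9 without both libraries numbered 1, and 2 of 9 with the length trend removed. For ubiquitin ligases 4 of 19 were negative and the median was 0.22, which was −0.059 with the length trend removed, where 12 of 19 were negative. Among them hyd, a large ligase, was at 139 ± 54.3 against 229.7 ± 48.7 CPM with an estimate of 0.72 ± 0.33 (edgeR adjusted p = 0.332). Its 9083 exonic bases make it a long gene, and its estimate was 0.45 without control 1 and −0.012 once the length trend was taken out. Roc2, a RING subunit of cullin ligases, was at 61.3, 47.4 and 56.5 CPM in control libraries 1 to 3 and 32.6, 38.3 and 38.6 CPM in DNMT3L libraries 1 to 3. Its groups did not overlap, its log2 fold change was −0.59 ± 0.16 (edgeR adjusted p = 0.321), and DESeq2 called it with an adjusted p of 0.0495. Once the length trend was taken out Roc2 was at −0.20 (edgeR adjusted p = 0.411).

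Neither edgeR nor DESeq2 called a gene among related complexes and regulators. All 8 COP9 signalosome genes tested, which encode a complex built like the proteasome lid, were negative with a median of −0.25, which was 0.073 with the length trend removed. Of these CSN6 had a log2 fold change of −0.38 ± 0.17 and alien −0.32 ± 0.16 (SE, edgeR adjusted p of 0.333 and 0.334). Among 5 regulators of transcription, cnc, the fly member of the Nrf family that acts on proteasome genes, was at 28.4, 87.8 and 67.9 CPM in control libraries 1 to 3 and 123, 59.8 and 70.5 CPM in DNMT3L libraries 1 to 3. Control 1 was the lowest and DNMT3L 1 the highest, the groups overlapped, and the estimate of 0.46 ± 0.46 on the log2 scale (edgeR adjusted p = 0.526) was −0.26 with the length trend removed. Its partner maf-S had −0.36 ± 0.21, which was 0.084 with the length trend removed and −0.077 without both libraries numbered 1. Autophagy genes, the other main route of protein degradation, were negative for 3 of 10 with a median of 0.071, with Atg1 at 0.59 ± 0.42 and Atg3 at −0.22 ± 0.15. Once the length trend was taken out Atg1 was at 0.30 and Atg3 at 0.10. Without both libraries numbered 1 they were at −0.013 and −0.21. Of the 10 autophagy genes, 2 were negative with the length trend removed, with a median of 0.12. Without both libraries numbered 1, 7 were negative and the median was −0.059.

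Set beside the canonical subunits, the 82 cytoplasmic ribosomal protein genes tested, the other large family of short and abundant transcripts, were all negative, RpL40 and RpS27A among them, with a median of −0.66. Leaving out control 1 gave −0.36 and taking out the length trend gave −0.28, against −0.20 and −0.10 for the proteasome. The median exonic size was 921.5 bases for ribosomal proteins and 1304 for canonical subunits. Of these ribosomal genes edgeR called 0, with 44 at an unadjusted p under 0.05 (1427 of 9495 over all genes), and DESeq2 called 1 (3.08% over all genes). The difference between these 2 families was not tested.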

How the data were processed

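Read counts per gene were deposited by the authors as whole numbers for 3 control and 3 DNMT3L libraries, with FPKM values, exonic sizes and coordinates. The submitters' processing notes name HTSeq 0.6.1, HISAT2 2.0.1, DESeq2, cutadapt 1.9.1 and bcl2fastq 2.17.1.14, and the builds dm6 and BDGP6, with no roles. The authors' deposited FPKM could be recomputed from counts, exonic size and column total for 100% of values, within 0.006. Per the labels' protocols, libraries followed poly(A) isolation or rRNA removal, and no source used here says which of these each library had. Counts were fitted with edgeR 4.0.16 in R 4.3.3 (filterByExpr, 9495 of 17737 genes kept; TMM; glmQLFit and glmQLFTest, two-sided; Benjamini-Hochberg over all genes tested; threshold 0.05), with SEs implied by the F statistic. The length trend is each library's loess curve (span 0.5) of genes' log2 deviations against the log2 of exonic size, removed through offsets. Alternatives used DESeq2 1.42.0 and limma 3.58.1, and the fit was tested on simulated data. Total counts of 17928420 to 19251845 make 3 counts, used as the floor, worth 0.156 to 0.167 CPM, for counting error only. All 47 members had the same coordinates, exonic size and symbol in the Ensembl release 115 annotation, which gave the exon overlaps. Members and lists were chosen with earlier results of these data known. Values per library are given for the catalytic beta subunits, for the members with the lowest p, the fold change nearest to 0 and the highest and lowest FPKM of each group, and for paralogs with at least 10 reads. The other members are given in brief, some with group means chosen after their values were seen, and 2 genes per pathway list were taken by lowest p, with Sem1, Ubi-p5E and Ubi-p63E added after their values were seen. The planned motif and protein comparisons were not run, since no sequences were used here.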

Additional observations from a re-analysis of the deposited data

How the results depend on the processing

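The count of genes called over the whole table was 0 by edgeR with TMM and filterByExpr, with 1427 genes at an unadjusted p under 0.05, and it was 292 with DESeq2, 2 with RLE size factors, 1 with total counts, 6 without the low-count filter, 16 without both libraries numbered 1, 12 with the length trend removed, 13 and 11 by limma on log2(FPKM + 1) and log2(FPKM + 0.1), and 1126 by voom with library quality weights. Leaving out 1 library at a time gave 0 to 0 genes. Of the 17 alternatives, voom with quality weights was the one that called proteasome genes, 3 in number, where 11.9% of all genes were called: Prosalpha6 (log2 fold change −0.36, limma adjusted p = 0.0495), Rpn7 (−0.34, adjusted p = 0.0426) and Rpn13 (−0.32, adjusted p = 0.0487). The median of the canonical subunits was negative in all 17, from −0.52 without control 2 to −0.10 with the length trend removed, and it was −0.14 without both libraries numbered 1. Leaving out 1 library gave medians of −0.52 to −0.20, with control 1 left out the nearest to 0. Total counts moved the median of all genes from −0.03 to 0.14, and relative to that shift the canonical median was −0.37, against −0.39 with TMM. The number of negative estimates among 32 was 27 with total counts and with both limma fits on FPKM, and 28 to 32 elsewhere. Estimates near 0 changed sign. Rpn2 was −0.0069 with upper quartile scaling, −0.054 to 0.19 when 1 library was left out (below 0 without control 1 or DNMT3L 1), −0.12 without both libraries numbered 1 and −0.16 with the length trend removed. Prosbeta2 was 0.0067 without control 1, 0.13 without both libraries numbered 1, 0.14 with the length trend removed and 0.030 by voom. Rpt5 was 0.024 with total counts and with each limma fit on FPKM, 0.062 with the length trend removed and 0.0029 by voom. Rpt3R was −0.050 with upper quartile scaling and −0.10 to 0.26 when 1 library was left out (below 0 without control 2, control 3 or DNMT3L 3). The cause of these changes was not tested. The correlation of same-numbered libraries' deviations from their group means was −0.65, −0.53 and −0.17 over 9495 genes. Control 1 and DNMT3L 1 stood apart from their groups in opposite directions, so these values cannot show whether the replicate numbers mark a shared preparation. With the replicate block the median was −0.39, 31 estimates were negative and 0 genes were called. Canonical subunits other than Prosalpha1 had 28059 to 48455 reads over the 6 libraries, and depth limited the paralogs, 13 of which were too low to test.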
